A study of Mus musculus with 27 samples.

Results

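The Mgat genes encode N-acetylglucosaminyltransferases, the Golgi enzymes that start and branch the antennae of N-glycans on secreted and membrane proteins. All mouse probe sets whose annotated gene symbol begins with Mgat were taken, and there were 5 of them among 702 mouse probe sets with a single gene symbol, in a table of 1813 probe sets. They were Mgat1 (probe set L07037_s_at), Mgat2 (BC010583_at), Mgat3 (NM_010795_at), Mgat4a (AI155765_at) and Mgat5b (AW121339_at), each gene with 1 probe set. Other Mgat genes were not analysed here. RefSeq places Mgat1 and Mgat5b on chromosome 11, Mgat2 on chromosome 12, Mgat3 on chromosome 15 and Mgat4a on chromosome 1.

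The study hybridised total RNA of 9 tissues to a custom Affymetrix array of glycosylation genes, and its question was how these genes differ between tissues. There were 3 arrays for each tissue, 27 in total: 4 lymphoid or blood-forming tissues (thymus, spleen, lymph node and bone marrow taken from femurs) and testis, lung, liver, kidney and brain. All came from wild-type male C57BL/6 mice aged 6 to 8 weeks, and no group was treated or carried an altered allele. The labels leave unsaid whether arrays of 1 tissue stand for different animals or for a pool, so the p-values measure the spread between these arrays, which may be technical.

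The precision is limited by 3 arrays a tissue. Array medians over the whole table lay between 221.5 and 243.7 intensity units. Each of the 27 arrays correlated best with another array of its own tissue. Of 29 measured tissue markers, 25 had their highest mean in the tissue they mark. The exceptions were St8sia3 of the brain list (highest in testis), Fcer2a of the spleen list and Il7r of the thymus list (both highest in lymph node), and Amh of the testis list (highest in liver). Amh was the only measured testis marker, so the testis label has no marker of its own here. A tissue is a mixture of cells, so fewer cells of a type and less RNA per cell cannot be told apart in any value below.

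N-glycan branching begins in a fixed order, from Mgat1 to Mgat2. Mgat1 adds the first N-acetylglucosamine to a trimmed mannose core and so opens the route to hybrid and complex N-glycans, after which the mannosidase Man2a1 removes further mannoses. Mgat2 then adds the second antenna. Mgat4a adds a further branch, and Mgat3 a bisecting residue that hinders later branching. Mgat5b is best known for branching O-mannosyl glycans and has been described mainly in brain and testis. All of these enzymes use UDP-GlcNAc as the donor sugar. In mice, Mgat1 is needed for embryonic development and for the formation of sperm, and bisected N-glycans are abundant in brain and kidney.

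Promoter windows of Mgat1 and Mgat2 are shown because their tissue profiles are compared below. That of Mgat5b is shown because its tissue means correlated negatively with theirs (r = -0.761 and -0.758). Those of Mgat4a did so too (r = -0.629 and -0.676), and its window is described below without its sequence. Each holds 300 bases, 250 before to 50 after the RefSeq gene start on build GRCm38.p6, written 5′ to 3′ on the strand of the gene. The Mgat1 window lies at chr11:49243941-49244240 on the plus strand, that of Mgat2 at chr12:69183908-69184207 on the plus strand and that of Mgat5b at chr11:116918613-116918912 on the plus strand. Capitals mark the GC box (GGGCGG) and the Ets core (CGGAAGT) on either strand. These motifs were chosen with the sequences in view.
Mgat1: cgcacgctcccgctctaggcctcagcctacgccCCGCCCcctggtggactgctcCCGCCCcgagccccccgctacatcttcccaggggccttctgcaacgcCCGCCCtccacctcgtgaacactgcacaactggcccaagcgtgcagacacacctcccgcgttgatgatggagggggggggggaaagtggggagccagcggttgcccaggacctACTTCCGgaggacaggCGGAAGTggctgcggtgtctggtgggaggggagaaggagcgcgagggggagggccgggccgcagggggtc
Mgat2: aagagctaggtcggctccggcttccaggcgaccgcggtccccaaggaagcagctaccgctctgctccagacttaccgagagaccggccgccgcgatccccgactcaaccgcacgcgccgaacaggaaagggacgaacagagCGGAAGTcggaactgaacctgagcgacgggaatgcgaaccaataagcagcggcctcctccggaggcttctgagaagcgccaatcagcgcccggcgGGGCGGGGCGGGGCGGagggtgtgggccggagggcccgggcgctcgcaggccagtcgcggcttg
Mgat5b: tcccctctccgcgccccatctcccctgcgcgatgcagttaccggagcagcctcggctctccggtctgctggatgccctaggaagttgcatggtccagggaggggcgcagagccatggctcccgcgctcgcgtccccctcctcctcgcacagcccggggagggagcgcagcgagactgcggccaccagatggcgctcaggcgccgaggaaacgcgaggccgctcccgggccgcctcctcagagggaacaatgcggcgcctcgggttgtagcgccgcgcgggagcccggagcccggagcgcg
The Mgat1 window held 3 GC boxes and 2 Ets cores, 1 on each strand, and the Mgat2 window held 3 GC boxes, neighbours sharing 1 base, and 1 Ets core. The Mgat5b window held neither. Of 32851 windows of this length in the table, 35.7% held a GC box and 6.42% held an Ets core. The Mgat2 window also held 2 CCAAT boxes, a motif found in 37.4% of windows, and the Mgat1 and Mgat5b windows held none. The GC content was 70.7% for Mgat1, 69.0% for Mgat2 and 73.0% for Mgat5b, against a median of 52.7% over all windows. The Mgat4a window, at chr1:37540967-37541266 on the minus strand, had a GC content of 74.3%, with 2 GC boxes, 1 CCAAT box and no Ets core. None of the 4 windows held TATAAA or TGACGTCA. A match is a description of letters only.

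Levels are the deposited intensities, in array units, and differences are in log2 units from a limma fit over all 702 mouse probe sets. A probe set was called where its Benjamini-Hochberg adjusted p was under 0.05 and its difference, or its range of tissue means, was at least 1 log2 unit. Probes for human genes on the same arrays give a rough guide to background signal, since mouse RNA may bind some of them. Over all arrays the 839 human probe sets had a median of 205.2 and a 95th percentile of 590.1. Mgat1 lay above that 95th percentile on 23 of 27 arrays, Mgat2 on 17, Mgat5b on 3, and Mgat3 and Mgat4a on 0. All 5 mouse probe sets lay above the human median on every array. The arrays below the 95th percentile included all 3 testis arrays for Mgat1, and all brain and testis arrays for Mgat2. Fold changes of these probe sets in those tissues are thus against a signal not clearly above that of probes for human genes.

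**Figure D1:**
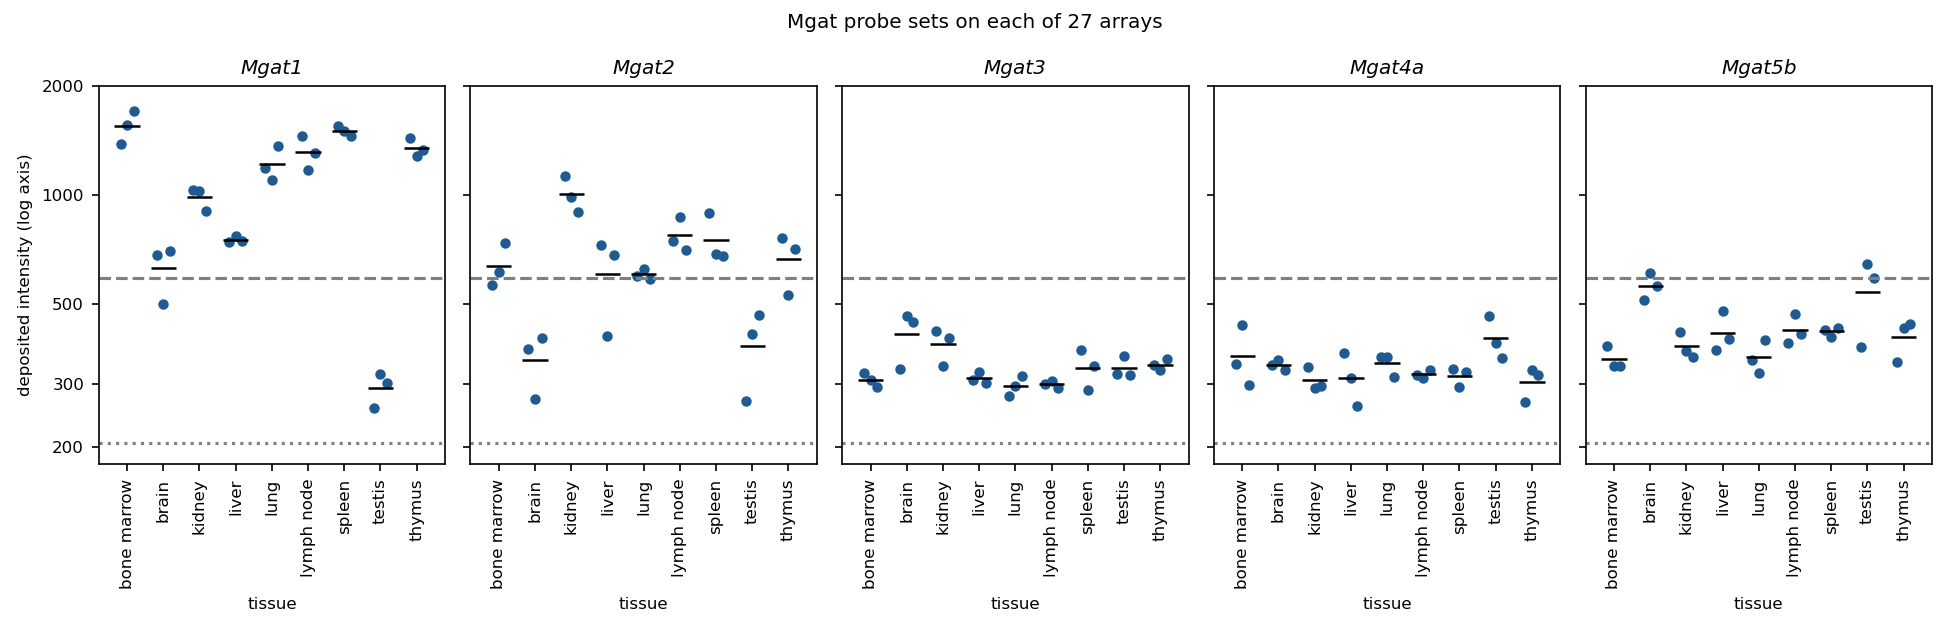
Deposited intensity (array units, log axis) of the 5 mouse Mgat probe sets on the 27 arrays, by tissue. Points are arrays, black bars tissue means (n = 3), the dotted line the human probe set median of 205.2 and the dashed line their 95th percentile of 590.1; Mgat1 is lowest in testis and Mgat2 highest in kidney, while Mgat3 and Mgat4a stay under the dashed line on every array.

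Among the 9 tissues, Mgat1 and Mgat2 were called, 2 of 5 members, where 52.3% of all mouse probe sets were called. The range of tissue means was 2.40 log2 units for Mgat1 (5.29-fold, adjusted p = 6.12e-14) and 1.53 for Mgat2 (2.9-fold, adjusted p = 8.72e-06), in limma's moderated F test. Mgat5b (0.67, adjusted p = 0.00232) and Mgat3 (0.47, adjusted p = 0.0061) passed the test with ranges under 1. Mgat4a had a range of 0.40 and an adjusted p of 0.124. Without a minimum range, 4 of 5 members and 86.3% of all mouse probe sets passed.

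Mgat1 was lowest in testis. Its intensity was 258, 319 and 302 on the testis arrays. On the brain arrays it was 679, 499 and 699.5, and on the liver arrays 739, 767 and 745. The 3 testis arrays lay below all 24 others, as did those of 4.84% of mouse probe sets. Testis averaged 292.8 ± 31.4, brain 626.0 ± 110.3 and liver 750.3 ± 15.0 (SD, n = 3 each). Against the other 8 tissues, Mgat1 fell in testis by 1.92 ± 0.09 (SE) log2 units, a measured fold of 3.8 (limma adjusted p = 2.09e-14). With each testis array raised to 590.1, that human 95th percentile, the other 8 tissues were at least 1.88-fold higher. In testis 13.4% of mouse probe sets were called lower. It was the only call of a member in a single tissue, and over the 9 tissues and both directions the share of mouse probe sets called ran from 0.997% (lower in lymph node) to 13.4%. The mean intensity over mouse probe sets was 364.0 to 407.5 on the testis arrays, within a range of 364.0 to 595.8 over all arrays. Of 4 measured macrophage and monocyte markers, 2 (Clec7a and Ccr2) were called lower in testis, with a median difference of -1.02 over the list and a summed intensity of 503.2 to 681.8. Of 5 endothelium markers, 1 (Pecam1) was called lower there, with a median of -0.92 and sums of 870.0 to 904.5. Of 3 lymph node markers 2 were called lower (Ltb and Ccl21b), of 3 thymus markers 1 (Il7r), of 4 neutrophil markers 1 (Ltf) and of 4 B cell markers 0. The part of overall signal and of these markers in the Mgat1 difference was not tested.

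In the tissues that hold or form blood cells Mgat1 was high. Bone marrow arrays gave 1383, 1558 and 1702, and spleen arrays 1551, 1505 and 1451. Thymus arrays gave 1436, 1280.3 and 1327, and lymph node arrays 1455, 1171 and 1305. The 12 arrays of these 4 tissues ran from 1171 to 1702. Lung arrays reached into this range, with 1187, 1099 and 1368, while kidney gave 1033, 1027 and 901. Bone marrow averaged 1547.3 ± 159.7, spleen 1502.2 ± 49.9, thymus 1347.5 ± 79.7 and lymph node 1310.4 ± 142.3, against 1218.1 ± 137.0 in lung and 987.1 ± 74.9 in kidney (SD, n = 3 each).

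Relative to the other 5 tissues, Mgat1 rose in the lymphoid and blood-forming group by 1.03 ± 0.06 (SE) log2 units, which is 2.04-fold (limma adjusted p = 1.13e-13), and 11.5% of mouse probe sets were called higher in this comparison. Without testis among the other tissues the difference was 0.72 ± 0.06 (1.65-fold, adjusted p = 3.02e-10), under the minimum size. It was also under it with quantile normalization (0.75), median centring (0.99) and array weights (0.97). Some markers of blood cell types, and of lymph node and thymus as tissues, were also called higher in this comparison. Of 4 measured macrophage and monocyte markers, 3 were called higher (Mrc1, Clec7a and Ccr2, not Siglec1), and their summed intensity was 960.7 to 5449.6 in the lymphoid and blood-forming tissues, against 173.1 to 1956.1 in the other 5. Of the 4 measured B cell markers, 3 were called higher. Their summed intensity was 5271.3 to 8980.8 in the lymphoid and blood-forming tissues, against 2360.0 to 5899.5 in the other 5. Cd22 was the brightest of the 4 in every tissue and weighs most in these sums. Its means were 5422.6 in spleen, 5295.3 in thymus, 4873.2 in lung and 4317.5 in brain. In thymus, against the other 8 tissues, 0 of the 4 were called and their median difference was -0.63. Of 4 neutrophil markers 2 were called higher, and only bone marrow had high sums, at 17499.0 to 19794.6. Spleen gave 1459.3 to 2054.7, lymph node 1246.6 to 1822.8 and thymus 1132.5 to 1260.9, against 1011.6 to 1929.8 in the other 5. Of 3 lymph node markers 2 were called higher, with sums of 3107.1 to 21489.0 in the lymphoid and blood-forming tissues and 697.0 to 2830.7 in the other 5. Of 3 thymus markers 2 were called higher, with sums of 957.0 to 6821.5 in the lymphoid and blood-forming tissues and 542.2 to 733.0 in the other 5. The mean intensity over mouse probe sets was 557.5 to 574.5 on the spleen arrays and 469.4 to 512.4 on the bone marrow arrays. On the brain arrays it was 384.3 to 404.2 and on the testis arrays 364.0 to 407.5, within 364.0 to 595.8 over all arrays. The part of overall signal and of these markers in this Mgat1 difference was not tested.

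In the order of Mgat1 levels, from bone marrow through spleen, thymus, lymph node, lung and kidney, no neighbouring tissues differed. Kidney exceeded liver by 1.31-fold (limma adjusted p = 0.0115 over all tests of 36 tissue pairs), and brain exceeded testis by 2.12-fold (adjusted p = 7.63e-08). Liver and brain, which stand between these steps, did not pass (1.21-fold, adjusted p = 0.0735). Of the 36 pairs, 26 differed for Mgat1, where 42.6% of all such tests over mouse probe sets passed. Differences from the other 8 tissues under 1 log2 unit were 0.78 in bone marrow, 0.73 in spleen, 0.56 in thymus, 0.51 in lymph node, 0.39 in lung, -0.39 in liver and -0.70 in brain, each with an adjusted p of 0.00113 or less. The share of mouse probe sets that passed in the same direction at any size was 15.7% in bone marrow, 25.8% in spleen, 15% in thymus, 27.2% in lymph node, 25.8% in lung, 33% in liver and 35.2% in brain. With quantile normalization the difference was 0.14 in lymph node (adjusted p = 0.24), 0.18 in lung (adjusted p = 0.12) and -0.06 in liver (adjusted p = 0.633). Kidney was near the mean of the others (0.05, adjusted p = 0.679).

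Mgat2 was highest in kidney and low in brain and testis. Its intensity was 1127, 986 and 899 on the kidney arrays, above all 24 others, as for 4.13% of mouse probe sets. On the brain arrays it was 376, 272 and 402, and on the testis arrays 269.6, 412 and 465. Brain and testis overlapped, and 1 liver array, at 406, fell among them beside 727 and 682 for the other liver arrays. Kidney averaged 1003.9 ± 115.1, brain 349.7 ± 68.6, testis 382.2 ± 101.1 and liver 605.0 ± 173.8 (SD, n = 3 each).

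Against the other 8 tissues Mgat2 differed by 0.82 ± 0.16 (SE) log2 units in kidney (1.76-fold, limma adjusted p = 0.000137). The difference was -0.91 ± 0.16 in brain (1.88-fold lower, adjusted p = 3.1e-05) and -0.79 ± 0.16 in testis (1.72-fold lower, adjusted p = 0.000178). All 3 are under the minimum size, and none counts as a call. With each array of the low tissue raised to 590.1, the other 8 tissues were at least 1.1-fold higher than brain and at least 1.09-fold higher than testis. With quantile normalization the kidney difference was 1.06, past that size. The share of mouse probe sets with an adjusted p under 0.05 at any size was 20.1% higher in kidney, 35.2% lower in brain and 38.2% lower in testis. The mean intensity over mouse probe sets was 384.3 to 404.2 on the brain arrays and 364.0 to 407.5 on the testis arrays. The part of overall signal in the Mgat2 differences was not tested. Tissue means of the other 5 lay between 602.0 ± 18.4 in lung and 772.9 ± 87.4 in lymph node, with bone marrow at 636.8 ± 88.2, thymus at 663.7 ± 120.7 and spleen at 749.8 ± 120.5 (SD, n = 3 each).

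Of the tissue pairs, 18 of 36 differed for Mgat2. The only neighbours in its order of levels that differed were liver and testis (1.57-fold, limma adjusted p = 0.0147). Kidney over lymph node, the next tissue down, was 1.3-fold with an adjusted p of 0.165. The difference of the lymphoid and blood-forming tissues from the other 5 was 0.37 ± 0.10 (1.3-fold, adjusted p = 0.0022), a comparison in which 33% of mouse probe sets were higher at any size. With quantile normalization it was 0.13 (adjusted p = 0.29), and without testis among the other tissues 0.24 (1.18-fold, adjusted p = 0.0499).

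Mgat3, the bisecting enzyme, stood highest in brain and kidney, by small differences. Its intensity was 330.2, 462 and 446 on the brain arrays and 421, 337 and 402 on the kidney arrays. The other 21 arrays ran between 278 and 372, so the lowest brain and kidney arrays overlapped them. Brain averaged 412.4 ± 71.6 and kidney 386.4 ± 44.1, with the other tissues between 296.0 ± 18.5 in lung and 338.8 ± 11.4 in thymus (SD, n = 3 each). Against the other 8 tissues the difference was 0.33 ± 0.09 in brain (1.26-fold, limma adjusted p = 0.00198) and 0.24 ± 0.09 in kidney (1.18-fold, adjusted p = 0.0252). Without the first kidney array the kidney difference was 0.17 (adjusted p = 0.196), and without the third it was 0.21 (adjusted p = 0.126). Of 36 tissue pairs 10 differed, 6 with brain and 4 with kidney as the higher tissue, and no neighbours in the order of levels did. All its arrays lay below the 95th percentile of the human probe sets.

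Mgat4a, which adds a branch to the Mgat1 arm, had its highest mean in testis. The testis arrays gave 462, 390.2 and 353, and the bone marrow arrays 341, 436 and 297. The other 21 arrays lay between 261 and 364, and 1 of the 3 testis arrays fell within that range. Testis averaged 401.7 ± 55.7 and bone marrow 358.1 ± 70.9, while the other tissue means ran from 304.0 ± 32.3 in thymus to 342.5 ± 24.9 in lung (SD, n = 3 each). The difference of testis from the other 8 tissues was 0.31 ± 0.10 (1.24-fold, limma adjusted p = 0.0106). Only 4 of 36 tissue pairs differed, and each involved testis. Without the first testis array, the testis difference was 0.20 (adjusted p = 0.15) and 0 pairs differed.

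Mgat5b was highest in brain and testis. The brain arrays gave 513, 608 and 560.3, and the testis arrays 380.4, 644 and 590.2. The other 21 arrays lay between 321 and 476, so all 3 brain arrays and 2 of the 3 testis arrays were above them. Brain averaged 560.5 ± 47.9 and testis 538.1 ± 139.2, and the other tissue means ran from 351.7 ± 25.4 in bone marrow to 423.6 ± 41.1 in lymph node (SD, n = 3 each). Against the other 8 tissues the difference was 0.46 ± 0.11 in brain (1.38-fold, limma adjusted p = 0.0012) and 0.36 ± 0.11 in testis (1.28-fold, adjusted p = 0.00827). At any size, 17.8% of mouse probe sets were higher in brain and 18.5% in testis with an adjusted p under 0.05. Of 36 pairs, 11 differed, 7 with brain and 4 with testis as the higher tissue, and no neighbours in the order did. In bone marrow (-0.29, adjusted p = 0.0393) and lung (-0.28, adjusted p = 0.0452) it was lower, where 29.1% and 23.6% of mouse probe sets were lower at any size. The testis difference depended on single arrays: it was 0.59 (adjusted p = 4.81e-05) without the first testis array, 0.21 (adjusted p = 0.167) without the second and 0.28 (adjusted p = 0.0865) without the third. With quantile normalization it was 0.74 (adjusted p = 4.82e-05).

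**Figure D2:**
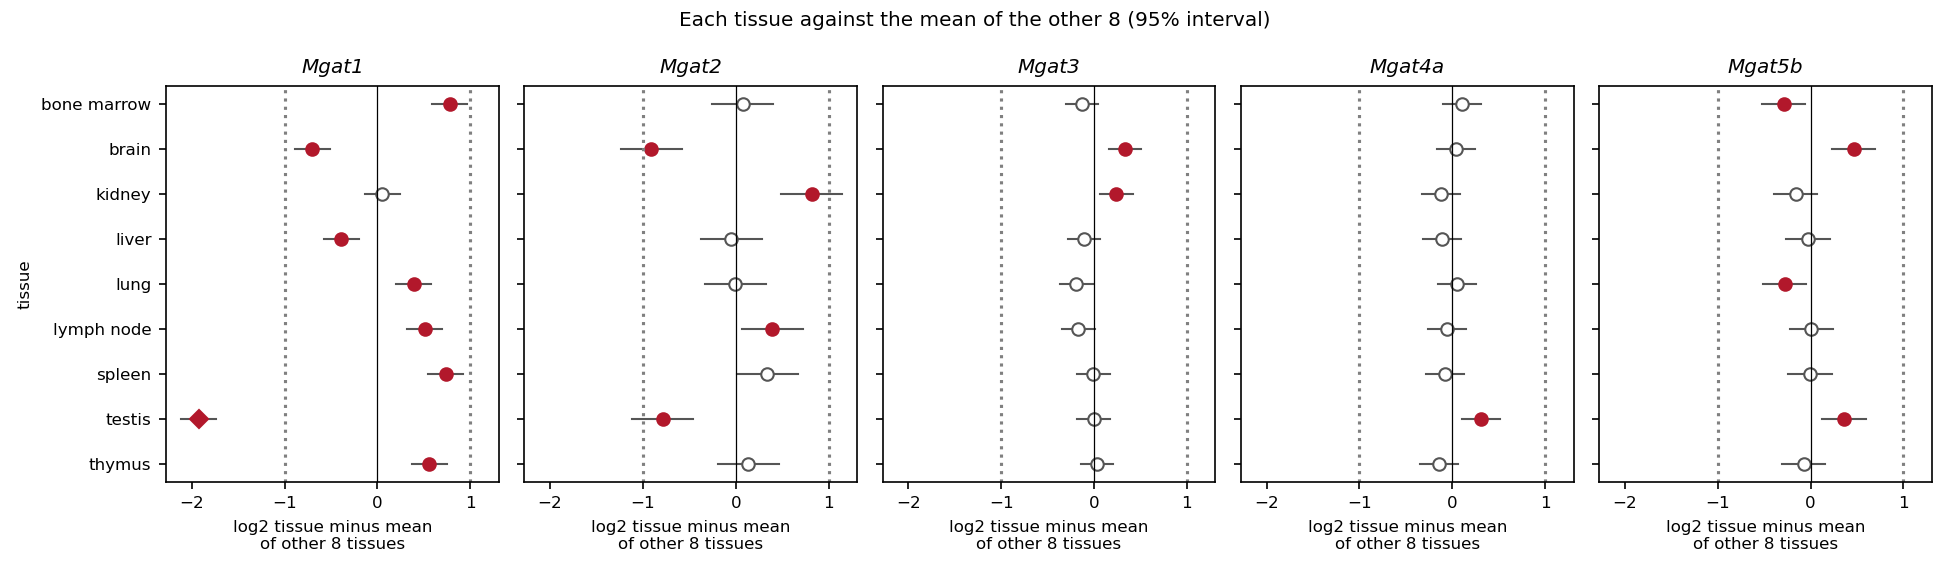
Difference of each tissue from the mean of the other 8 (log2 units) for the 5 Mgat probe sets, with 95% confidence intervals from the limma fit as bars. Red marks an adjusted p under 0.05, a diamond also a size of at least 1 and dotted lines stand at 1 and -1; Mgat1 in testis, at -1.92, is the only diamond.

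By their means, the same tissues stood at opposite ends for different members. Testis was the lowest tissue for Mgat1 and the highest for Mgat4a, which did not pass the moderated F test (adjusted p = 0.124). Brain was the lowest for Mgat2 and the highest for Mgat3 and Mgat5b. Over the 9 tissue means, Pearson's r was 0.721 between Mgat1 and Mgat2, -0.761 between Mgat1 and Mgat5b, and -0.758 between Mgat2 and Mgat5b. Mgat4a gave -0.629 with Mgat1 and -0.676 with Mgat2, and Mgat3 gave 0.545 with Mgat5b. These correlations describe 9 points that share arrays and scaling. Mgat3 and Mgat4a lay above the human 95th percentile on 0 of 27 arrays and Mgat5b on 3, so their order of tissues rests on low signal.

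Whether a pair of members differed in profile was tested on the log2 ratio of the pair on each array, with an F statistic among tissues and a permutation test of 100000 resamples. The ratio of Mgat1 to Mgat2 differed among tissues (permutation p = 3e-05, adjusted over 10 pairs 6e-05). Centred on its mean over tissues, the ratio was -1.01 ± 0.28 in testis and -0.68 ± 0.09 in kidney (SD, n = 3 each). It was 0.62 ± 0.07 in bone marrow, with a range among tissues of 1.64 log2 units. In liver it was -0.30 ± 0.49, where the arrays spread from -0.64 to 0.26. In testis every array of both probe sets lay below the human 95th percentile, so the ratio there does not compare their steps. Without brain and testis, a choice made after seeing the data, the ratio still differed among the other 7 tissues (permutation p = 0.00074, range 1.31 log2 units), with kidney lowest and bone marrow highest.

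The other 9 pairs each hold Mgat3, Mgat4a or Mgat5b, which were above the human 95th percentile on at most 3 of 27 arrays, and they were added once it was known which members the array measures. A ratio of Mgat1 or Mgat2 to one of these mostly repeats the range of Mgat1 or Mgat2 given above and is not a separate result. Among the 3 low-signal members themselves, the adjusted permutation p was 0.0115 for Mgat3 with Mgat4a and for Mgat3 with Mgat5b, and 0.117 for Mgat4a with Mgat5b.

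**Figure D3:**
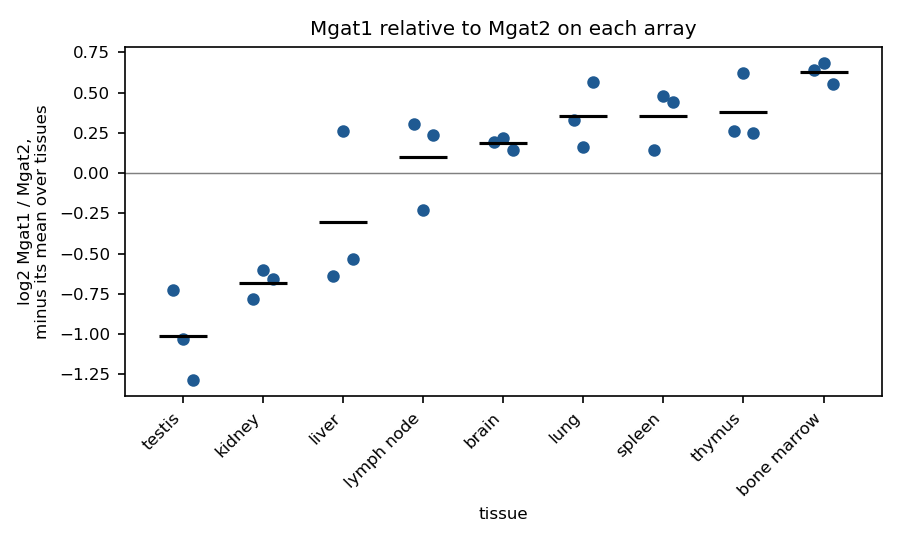
Log2 ratio of Mgat1 to Mgat2 on each array, centred on its mean over tissues, with tissues ordered by their mean ratio. Points are arrays and bars tissue means (n = 3); testis (-1.01) and kidney (-0.68) lie at the low end and bone marrow (0.62) at the high end.

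For the 2 called members, the 3 probe sets of other genes with the most similar profile were found by Pearson's r over the 9 tissue means, among 366 called probe sets. For Mgat1 they were Psmb3 (r = 0.929), a proteasome subunit, B3gnt2 (r = 0.928), which extends poly-N-acetyllactosamine chains, and Gusb (r = 0.907), the lysosomal beta-glucuronidase. All 3 probe sets had their lowest mean in testis, though another probe set of B3gnt2 had its lowest in liver. For Mgat2 they were Manba (r = 0.96), the lysosomal beta-mannosidase, Galnt1 (r = 0.901), which starts mucin-type O-glycans, and Man2b1 (r = 0.893), the lysosomal alpha-mannosidase. These also had their lowest mean in testis, and Manba and Galnt1 had their highest in kidney. These were the highest of 366 values of r over 9 points, and they are given as a description.

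Other genes of the pathway were taken from lists of N-glycan steps. Of 6 trimming mannosidases only Man2a1 was measured, which acts after Mgat1 and before Mgat2. It averaged 242.5 ± 24.6 in brain and 362.2 ± 103.6 in testis, with 874.0 ± 12.8 in spleen as the highest (SD, n = 3 each). Man2a1 fell in brain against the other 8 tissues by 1.23 ± 0.11 log2 units (2.35-fold, limma adjusted p = 1.34e-09), where 10.7% of mouse probe sets were called lower. In testis its difference was -0.63, under the minimum size.

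Of 32 genes that build and transfer the lipid-linked precursor and fold the glycoprotein, 8 were measured and 3 called among tissues, where 50.6% of all 573 mouse genes were called when each was read from 1 probe set. Ganab, a glucosidase subunit that trims the new glycan, fell in testis by 1.10 log2 units (2.15-fold, limma adjusted p = 1.15e-07), with a mean of 483.1 ± 142.5 in testis. Canx, the lectin chaperone, and Dpm1, which makes dolichol-phosphate mannose, were called among tissues but in no single tissue. The median difference in testis was -0.04 over these 8, against -0.07 over the 573 genes.

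Of 10 genes for the supply of UDP-GlcNAc and the turnover of related amino sugars, 8 were measured and 7 called among tissues, against 50.6% of all genes. In testis 2 rose and 0 fell. Gfpt1, the rate-limiting enzyme of the hexosamine pathway, averaged 924.1 ± 245.5 in testis, with 219.8 ± 14.0 in lung as its lowest tissue (SD, n = 3 each), and rose in testis by 1.94 ± 0.11 log2 units (3.83-fold, limma adjusted p = 3.55e-13). Slc35a3, a Golgi UDP-GlcNAc transporter, rose in testis by 1.39 ± 0.09 (2.62-fold, adjusted p = 4.57e-12) and in kidney by 1.41 ± 0.09 (2.65-fold, adjusted p = 7.22e-12). Its means were 946.2 ± 140.1 in testis and 953.6 ± 118.0 in kidney, and 271.0 ± 2.7 in bone marrow as its lowest. In testis 2.99% of mouse probe sets were called higher and in kidney 6.55%. The medians of these 8 genes were 0.20 in testis and 0.56 in kidney, against -0.07 and -0.06 over the 573 genes. Uap1, which forms UDP-GlcNAc, and Gnpnat1, an acetyltransferase of the same route, had their lowest means in testis, with differences of -0.79 (adjusted p = 1.33e-06) and -0.47 (adjusted p = 0.00103), under the minimum size. Kidney, the highest tissue for Mgat2, had 3 of the 8 called higher: Slc35a3, Renbp (1.37 ± 0.09, 2.58-fold, limma adjusted p = 9.11e-12) and Gnpda1. Renbp is a renin-binding protein that is also an N-acylglucosamine epimerase, and Gnpda1 is a glucosamine-6-phosphate deaminase. Of these 3 only Slc35a3 acts on UDP-GlcNAc itself, so neither this count nor the kidney median measures donor supply. Nagk, N-acetylglucosamine kinase, was called among tissues but in no single one.

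After the branches are made, galactose, fucose and sialic acid are added. Of 12 genes for core fucose and antenna elongation, 9 were measured and 5 called among tissues, near the 50.6% of all genes. B4galt1, a main antenna galactosyltransferase, averaged 120.8 ± 28.5 in brain and 211.3 ± 61.3 in testis, with 747.3 ± 48.1 in bone marrow as its highest. It fell in brain by 2.05 log2 units (4.14-fold, limma adjusted p = 1.28e-11) and in testis by 1.16 (2.23-fold, adjusted p = 1.56e-07), and rose in the lymphoid and blood-forming tissues by 1.14 (2.2-fold, adjusted p = 4.45e-11). B3gnt2 fell in testis by 1.22 (2.33-fold, adjusted p = 8.37e-11) on its brightest probe set. Another B3gnt2 probe set had its lowest mean in liver (range 1.28 log2 units, adjusted p = 1.97e-08 in the moderated F test). In brain, B4galt6, better known for lactosylceramide synthesis, rose by 1.35 (2.55-fold, adjusted p = 5.57e-13), where 5.56% of mouse probe sets were called higher. Fut8, the core fucosyltransferase, fell in liver by 1.43 (2.69-fold, adjusted p = 2.6e-09), where 9.97% were called lower. B4galt4 rose in lung by 2.52 (5.76-fold, adjusted p = 2.72e-15), where 9.54% were called higher. The testis median of the 9 was -0.27.

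Of 9 sialylation genes, 8 were measured and 6 called among tissues, against 50.6% of all genes. In testis 2 fell and 0 rose, with a median of -0.68 over the 8, against -0.07 over the 573 genes. Gne, which starts sialic acid synthesis, fell in testis by 1.04 (2.06-fold, limma adjusted p = 2.78e-10) and rose in liver by 1.46 (2.74-fold, adjusted p = 8.26e-13), where 4.42% of mouse probe sets were called higher. St6gal1, which caps antennae with alpha-2,6-linked sialic acid, fell in testis by 1.07 (2.1-fold, adjusted p = 8.74e-09) and rose in the lymphoid and blood-forming tissues by 1.11 (2.15-fold, adjusted p = 5.8e-13). The means of this probe set, the brightest of the gene, were 890.0 ± 94.3 in lymph node and 886.4 ± 39.6 in spleen, and 211.3 ± 32.3 in testis. Other St6gal1 probe sets had other profiles. D16106_at was highest in liver and lowest in lung (range 1.23 log2 units, adjusted p = 2.45e-10 in the moderated F test). BB768706_at was highest in lymph node and lowest in kidney. St3gal6 fell in liver by 1.39 and rose in lung by 1.17, and Cmas, which activates sialic acid, was called among tissues but in no single one.

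**Figure D4:**
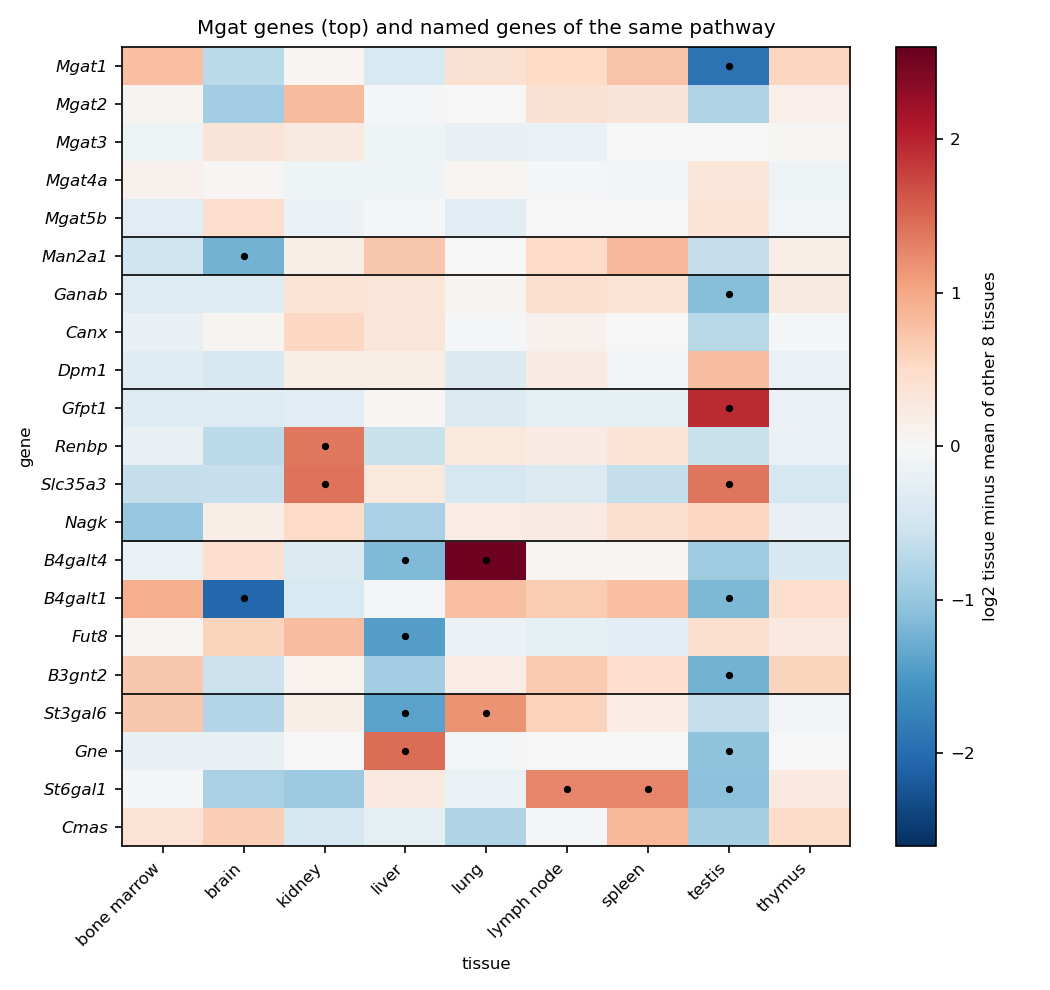
Difference of each tissue from the mean of the other 8 (log2 units, colour) for the Mgat genes and named genes of the same pathway. Dots mark calls at adjusted p under 0.05 and a size of at least 1. In testis Mgat1 (-1.92), Ganab, B4galt1, B3gnt2, Gne and St6gal1 are lower, and Gfpt1 (1.94) and Slc35a3 (1.39) are higher.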

How the data were processed

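The data were deposited intensities of a custom Affymetrix glycogene array, 1 linear value per probe set and array, in the authors' deposited value table. The summary method and the scaling were not given in the sources used here. Probe sets were named from the platform annotation: a single gene symbol was given for 1563, several for 2 and none for 248. The members and the gene lists were chosen with earlier results of these data known.

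Values under 16 (0.269% of those of mouse probe sets) were raised to 16 and log2 transformed. The 702 mouse probe sets were fitted with limma 3.58.1 in R 4.3.3, with 1 coefficient per tissue, over all 27 arrays. Tests were a moderated F test among tissues, a contrast of every tissue with the other 8 (equal weights), a contrast of the 4 lymphoid and blood-forming tissues with the remaining 5, and 36 tissue pairs (25272 tests adjusted together). The Benjamini-Hochberg adjustment ran over all mouse probe sets. A call needed an adjusted p under 0.05 and a size of at least 1 log2 unit, except for pairs, which have no minimum size. Named genes were all Mgat probe sets, the 3 most similar to each called member, all measured trimming mannosidases, and up to 4 called genes with the widest range from each other list. B4galt6 was named after its values were seen, as the only gene of its list called higher in brain; Gnpda1 likewise, as the third called in kidney. For gene lists, genes with several probe sets were read from that with the highest mean. Promoter windows came from RefSeq (GRCm38.p6) and matched 4 of the 5 members by gene identifier. The fit was tested on simulated data. Alternatives were quantile normalization, median centring, a floor of 64, an added offset of 16, the lowest 234 probe sets left out, 1 probe set for each of 573 genes, a trended robust variance, array weights, the title numbers as a block, and each array left out in turn.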

Additional observations from a re-analysis of the deposited data

How the results depend on the processing

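Results were recomputed under 38 settings, giving 1875 values for 53 results. Of these, 1856 kept their direction and their call, which rests on the adjusted p and the size together (counts stayed within 1.5 times), and 0 reversed. The adjusted p alone crossed 0.05 in 47 values, 17 of them for Mgat2 in lymph node and 13 for Mgat5b in lung. The Mgat1 fall in testis was called under all 36 settings in which it was refitted. The Mgat1 rise in the lymphoid and blood-forming tissues, at 1.03, was near the minimum size: it was 0.75 under quantile normalization, 0.99 under median centring, 0.97 with array weights and 0.72 without testis (an alternative chosen after seeing the data), so that 0 members were called there under each of these 4. Under quantile normalization the range of Mgat5b was 1.04 (adjusted p = 5.51e-05), Mgat2 in kidney was 1.06 and so 1 member was called higher there, and the Mgat4a pairs that differed were 8, against 7 under median centring and 7 with array weights. The causes were not tested. Leaving out each array in turn gave 6 to 12 pairs for Mgat3 (6 without kidney replicate 1), 0 to 6 for Mgat4a, 7 to 14 for Mgat5b (7 without brain replicate 2), and 0 to 1 member called lower in brain (Mgat2 at -1.02 without brain replicate 3). Quantile normalization moved the median of all mouse probe sets to -0.18 in lymph node and -0.14 in the lymphoid and blood-forming tissues, against -0.04 and -0.04 as reported, and to 0.09 in testis, against -0.09 as reported.

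Small differences under 1 log2 unit depended more on the setting. Mgat4a passed the F test's adjusted p under quantile normalization (0.68, adjusted p = 0.00235), under median centring (0.51, 0.0109) and with array weights (0.0447). Mgat3 in kidney was 0.17 (adjusted p = 0.196) without kidney replicate 1. With the title number as a replicate block no call changed: Mgat1 kept a range of 2.40 (adjusted p = 7.55e-13). Same-numbered arrays of different tissues had a median correlation of deviations of 0.02, against 0.01 for arrays with different numbers. It ran from -0.37 to 0.58 and was over 0.1 in 23 of 108 pairs, and 8 of 27 arrays correlated best with their own number. These values cannot tell whether same-numbered arrays came from 1 animal. No second probe set of an Mgat gene was measured, so that alternative gave no value.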

Other observations

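The array also carries 5 human MGAT probe sets, to which mouse RNA was hybridised. The human MGAT4A probe set gave 136.8 to 165.4 on the testis arrays (mean 146.7 ± 16.3, SD, n = 3), above all 24 other arrays, whose highest value was 98.8. These values lie below the human probe set median of 205.2. Of 839 human probe sets, 35 (4.17%) had all testis arrays above all others. None of the other 4 human MGAT probe sets had a tissue whose 3 arrays all lay above or all below the other 24.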
